A study of Mus musculus with 2 samples.

Results

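The genes described here are 10 components of oxygen sensing and vascular growth signalling, taken by their symbol from a table of 23456 genes: the ligands Vegfa and Vegfb, the oxygen-regulated transcription factor subunits Hif1a and Epas1, the prolyl hydroxylases Egln1 and Egln3, and the hypoxia-induced genes Bnip3, Bnip3l, Ddit4 and Ndrg1. For each gene the transcript row with the most reads was kept, and all 10 were found. They were measured in eosinophils, granulocytes of the healthy intestinal mucosa, which had been sorted by flow cytometry after enzymatic digestion of colons from naive wild-type C57BL6 mice. There is 1 group of 2 samples, with no treatment, and no source used here gives the age or number of the mice or the sort gate. Libraries were made by CEL-Seq, which counts tags near the 3′ end of polyadenylated RNA, with 3 technical replicates per sample.

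In well-oxygenated cells the EGLN prolyl hydroxylases modify the alpha subunits of hypoxia-inducible factor (HIF), and the VHL ubiquitin ligase complex then marks them for destruction. When oxygen is low the alpha subunit persists, pairs with ARNT and binds short DNA elements near its target genes, so HIF activity is set largely at the level of the protein rather than of its mRNA. The targets include VEGF-A, the main growth factor for blood vessels, the mitophagy receptors BNIP3 and BNIP3L, the mTOR complex inhibitor DDIT4 and the hydroxylase EGLN3 itself. The colonic mucosa is known for a steep oxygen gradient towards the lumen, and eosinophils are a known source of VEGF-A.

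Each transcript has 1 read number and 1 RPKM (reads per 1000000 reads and kilobase of transcript), both averaged by the authors over the whole group. With 1 value for the group, the levels have no SD or n and the comparisons no test. Brackets after a level hold the exact 95% Poisson interval of the reads summed over the 6 libraries, scaled to RPKM, and cover counting error only. The libraries had 1892486 to 4752357 reads. The kept rows of all genes held 7692387 reads, called the reads on genes here, and reads on other rows are left out. A gene with no read could still have had up to 3 reads, or 0.390 reads per 1000000 reads on genes (RPM). Tags taken near the 3′ end do not grow in number with transcript length, so RPKM lowers longer transcripts. For comparisons between genes RPM is therefore the closer scale, and RPKM is given as the authors deposited it. The libraries held eosinophil transcripts: 9 of 10 marker genes reached an RPKM of 1, beside 31.0% of all genes. Alox15 led at 229.9, with Ccr3 at 155 and Adgre1 at 109, while the granule gene Epx, chosen with its value known, had 0.265.

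The table lists Vegfa from a pair of start sites, and the sequence before each is shown because the row that holds most Vegfa reads begins at the internal one. Capitals mark ACGTG or GCGTG on either strand, the core of the element that HIF binds; CACGTG is a match on both strands. The sequences are from RefSeq, build GRCm38.p6, written 5′ to 3′ on the strand of the gene. The first runs from chr17:46032378-46032627, minus strand, the 250 bases before the outer start, and the second from chr17:46025164-46025413, minus strand, the 250 bases before the internal start.
Vegfa, outer start: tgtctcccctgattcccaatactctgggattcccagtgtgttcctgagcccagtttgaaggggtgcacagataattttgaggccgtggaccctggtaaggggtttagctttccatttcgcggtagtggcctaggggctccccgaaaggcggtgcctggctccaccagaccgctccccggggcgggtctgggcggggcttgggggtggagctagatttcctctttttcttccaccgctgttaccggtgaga
Vegfa, internal start: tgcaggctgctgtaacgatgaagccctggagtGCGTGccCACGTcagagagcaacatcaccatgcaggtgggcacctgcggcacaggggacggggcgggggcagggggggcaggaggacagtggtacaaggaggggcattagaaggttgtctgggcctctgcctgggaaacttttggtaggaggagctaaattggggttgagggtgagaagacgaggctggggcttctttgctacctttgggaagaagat
The outer window held no match in these letters, and bases farther before the start were not searched. Both matches before the internal start lie inside an exon of the GENCODE M21 annotation, which spans 46025347 to 46025543 on chromosome 17, and not in the intron that follows it.

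RefSeq promoter windows of 300 bases, 250 before the start and 50 after it, were found for 7 of the 10 genes, and those of Epas1, Bnip3l and Ndrg1 were not. The other windows are shown by 31 bases around 1 match each, so that the element can be compared between genes. All lie before the start: Bnip3 at chr7:138909597-138909627, minus strand, Hif1a at chr12:73907720-73907750, plus strand, Ddit4 at chr10:59951940-59951970, minus strand, Egln3 at chr12:54204086-54204116, minus strand, Egln1 at chr8:124949363-124949393, minus strand, and Vegfb at chr19:6987715-6987745, minus strand.
Bnip3: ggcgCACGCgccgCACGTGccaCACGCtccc
Hif1a: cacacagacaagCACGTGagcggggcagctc
Ddit4: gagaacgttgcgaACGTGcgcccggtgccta
Egln3: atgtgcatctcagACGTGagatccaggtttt
Egln1: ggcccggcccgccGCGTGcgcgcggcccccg
Vegfb: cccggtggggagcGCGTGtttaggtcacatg
A match was present in 7 of 8 windows, against 43.8% of all 32851 windows. The 8 windows of these 7 genes had a G+C content of 54.7% to 86.0%, and the median of all windows was 52.7%. Among the 14579 windows in the same G+C range, 63.4% held a match, but they were not matched in G+C content within that range. Bnip3 had 5 matches, Hif1a 3 and Egln3 1, counting each strand. These are descriptions of letters in a window, and binding was not measured.

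All 10 genes reached an RPKM of 1, which 31.0% of all genes did, and 4 of 10 reached an RPKM of 10, which 8.78% of all genes did. Their median RPKM was 5.41, beside 0.186 over all genes and 4.28 over the genes that reached an RPKM of 1. The range ran from 247.5 for Vegfa to 1.96 for Bnip3l, and by RPKM even Bnip3l was above 76.7% of all genes. By RPM the lowest was Vegfb, above 68.1% of all genes. Together the kept rows of the 10 genes held 14938 reads, 0.194% of the reads on genes. The kept Vegfa row alone contributed 66.9% of them.

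**Figure D1:**
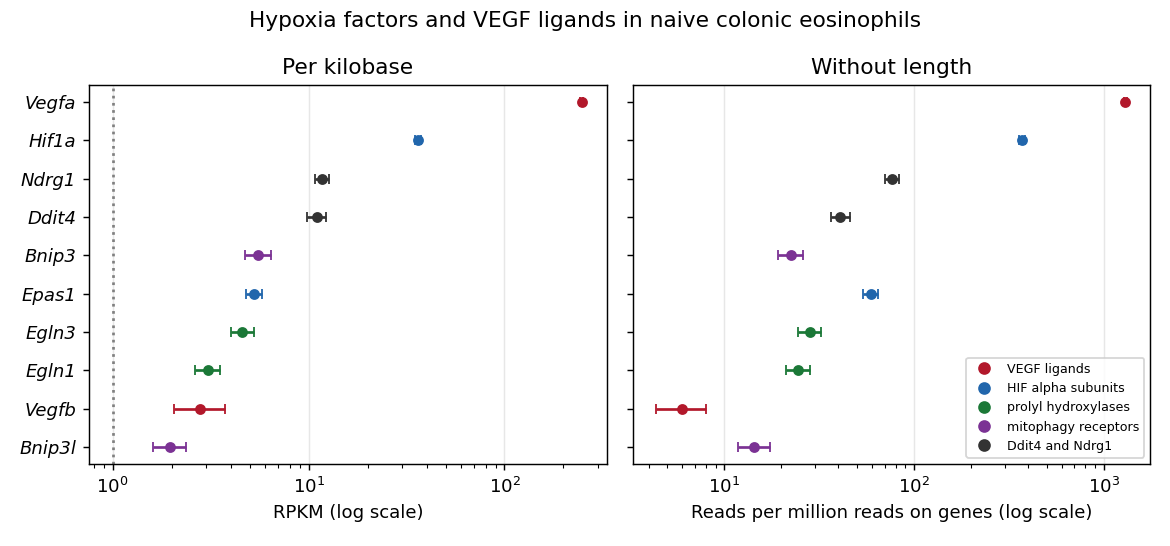
Level of each gene as RPKM (left) and as reads per 1000000 reads on genes (right), both on log axes; points are the authors' mean over the group and bars the exact 95% counting interval, and the dotted line marks an RPKM of 1. Vegfa and Hif1a stand apart from the rest on both scales, while Epas1 lies below Ddit4 per kilobase and above it without length.

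Among the ligands, Vegfa, which drives the sprouting and permeability of blood vessels, was the highest of the set. Its row NM_001110268 had 10000 reads over the 6 libraries and an RPKM of 247.5 (242.7 to 252), or 1299.99 RPM (1275 to 1326). Of all genes, 99.506% were lower by RPKM, and Vegfa ranked 116 by RPKM and 103 by RPM. Vegfb, the related ligand that binds the receptor encoded by Flt1, had 46 reads and an RPKM of 2.81 (2.06 to 3.75). It ranked 4581 by RPKM and 7425 by RPM, so its place differed between the scales. The Vegfa level was 88.1 times that of Vegfb per kilobase (66.0 to 120.4) and 217 times by reads (163 to 297).

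The Vegfa value depends on which transcript row the reads were given to. The table has 6 Vegfa rows, all ending at 46016993 on chromosome 17, minus strand, in mm10. Row NM_001110268, which starts at 46025163, held 93.7% of the Vegfa reads. Row NM_001025257, which starts at 46032377 at the outer site, held the other 678 reads at an RPKM of 9.24 (8.56 to 9.97), and the remaining 4 rows were listed at 0. A tag near a shared 3′ end does not show at which start its transcript began, so the split is no measure of start site use. Over all genes, 1330 sets of rows shared a 3′ end and had 100 or more reads, and in 43.7% of them all reads were on 1 row. In 49.9% of the sets 90% or more of the reads were on 1 row, as for Vegfa.

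The length behind the RPKM differed between the rows as well. From their reads and RPKM and the mean library depth, the row from the internal start was counted with a length of about 2301 bases and the other with about 4177. With the 10678 reads of both rows divided by the longer length, the Vegfa RPKM was 146, and its ratio to Vegfb 51.8. Vegfa remained the highest of the 10 genes at that value.

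**Figure D2:**
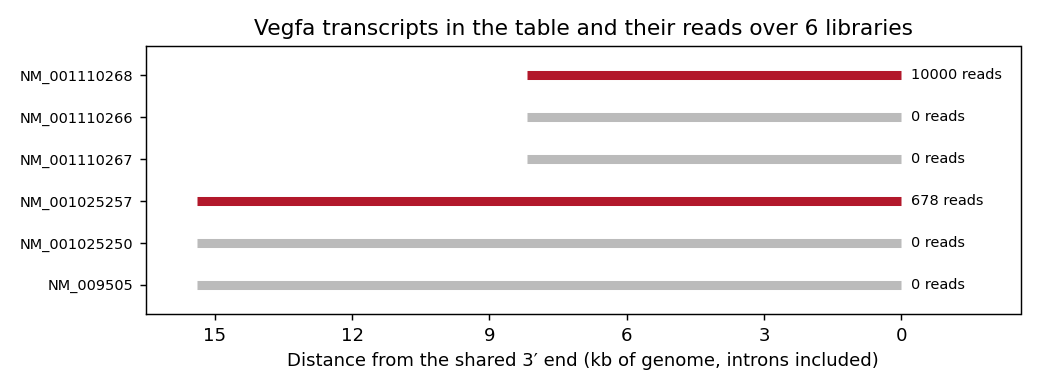
The 6 Vegfa transcripts of the table drawn from start to shared 3′ end, in kb of genome with introns, with the reads of each over the 6 libraries; red bars have reads and grey bars are listed at 0. The row from the internal start has 10000 reads and 1 row from the outer start has 678.

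Other parts of the VEGF system were, with the exception of Thbs1, far below Vegfa in RPKM. Of 20 listed ligands, receptors and antagonists 4 reached an RPKM of 1, beside 31.0% of all genes, but 15 of 20 reached 1 RPM, beside 50.9% of all genes, so the list lay below the share of all genes per kilobase and above it without length. The list median RPKM was 0.355, above the 0.186 of all genes. Thrombospondin 1, Thbs1, a secreted inhibitor of vessel growth, was by far the highest at 131.5 (129 to 134), between Vegfa and Hif1a per kilobase. Without length Thbs1 was above Vegfa, at 1610 RPM beside 1299.99 RPM. The endothelial receptor Tie1 had an RPKM of 6.15, the growth factor Pdgfa 1.73 and the VEGF co-receptor Nrp1 1.04. The ligands Vegfc and Vegfd had 0.123 and 0.927, and the placental growth factor Pgf was listed at 0, as was Fgf2. The signalling receptors Flt1, Kdr and Flt4, from 38, 16 and 3 reads, had RPKM values of 0.313, 0.122 and 0.0258. The receptors, Vegfc and Vegfd were chosen with their values known.

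Among the HIF alpha subunits, Hif1a was the second highest of the 10 genes. It encodes the broadly expressed subunit and had 2844 reads and an RPKM of 36.3 (34.97 to 37.7), or 370 RPM, above 96.7% of all genes. Epas1, which encodes HIF-2 alpha, the subunit best known from endothelium and from type 2 alveolar and renal interstitial cells, had 454 reads and an RPKM of 5.29 (4.82 to 5.80), or 59.0 RPM. The Hif1a level was 6.86 times that of Epas1 per kilobase (6.21 to 7.59) and 6.26 times by reads (5.67 to 6.93), so length made little difference to this pair. The third alpha subunit gene, Hif3a, had 2 reads. Arnt, the partner that all alpha subunits need for DNA binding, had an RPKM of 6.79 (6.26 to 7.35), and its paralogue Arnt2 was listed at 0. Arnt and Hif3a were named after their values were seen.

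Epas1 is used by endothelial cells, and markers of that cell type were uneven. Of 10 endothelial markers 4 reached an RPKM of 1 (40.0%), near the 31.0% of all genes. Their summed RPKM was 38.0 and none was listed at 0. Pecam1, which leukocytes also express, had 16.3, Plvap 12.4 and Tie1 6.15, whereas the endothelial cadherin Cdh5 had 0.535 and the claudin Cldn5 0.0519, the last 2 named after their values were seen. The part of such cells in the Epas1 level was not tested. In a sorted bulk sample, fewer cells that express a gene and less RNA per cell cannot be told apart.

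Among the oxygen sensors, Egln3 was higher than Egln1 per kilobase but not separated from it by reads. Egln3, a hydroxylase whose gene is itself a HIF target, had 217 reads and an RPKM of 4.59 (4.001 to 5.24). Egln1, regarded as the main hydroxylase of HIF-1 alpha in most cells, had 188 reads and an RPKM of 3.05 (2.63 to 3.52). The Egln1 level was 0.665 times that of Egln3 (0.544 to 0.812), but by reads the ratio was 0.866 (0.709 to 1.06), an interval that includes 1. The order of these genes therefore rests on the division by length, which 3′ tags do not call for, and was not separated by counting error without it. The third paralogue Egln2 had 1.16 (0.861 to 1.52) from 51 reads, and Hif1an, the asparagine hydroxylase that blocks the coactivator contact of HIF, had 1.04 (0.873 to 1.23); both were chosen with their values known.

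Of the 21 listed HIF partners and regulators 14 (66.7%) were at an RPKM of at least 1, beside 31.0% of all genes. The list median was 1.53. Elob, an elongin subunit of the VHL complex, had 98.0, the chaperone Hsp90ab1 43.3, Cited2, which competes with HIF for its coactivators, 15.7 and the ring-finger subunit Rbx1 14.7. Other genes share 53.4% of the searched sequence of Elob, which makes its value uncertain. The gene of VHL itself, Vhl, picked with its value known, had an RPKM of 1.23 and 58 reads. Arnt2, P4htm and Ube2s were listed at 0.

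Among the hypoxia-induced genes, Ndrg1 and Ddit4 were at similar levels per kilobase, but Ndrg1 was higher without length. Ndrg1, a stress-response protein of the N-myc downstream-regulated family, had 590 reads and an RPKM of 11.7 (10.8 to 12.7). Ddit4, also called REDD1, which restrains mTOR complex 1 under low oxygen and other stress, had 315 reads and 11.0 (9.86 to 12.3), and the intervals overlap. By RPM they were apart, at 76.7 (70.6 to 83.1) and 40.9 (36.6 to 45.7). Their paralogues were lower: Ndrg3 had 4.76 and Ndrg2 0.765, both named after their values were seen, and Ddit4l was listed at 0.

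The mitophagy receptors stood lower. Bnip3, which tethers mitochondria to autophagosomes, had 173 reads and an RPKM of 5.54 (4.74 to 6.43), and Bnip3l, also called NIX and required for the clearance of mitochondria from maturing red cells, had 111 reads and 1.96 (1.61 to 2.36). The Bnip3l level was 0.354 times that of Bnip3 per kilobase (0.276 to 0.452) and 0.642 times by reads (0.501 to 0.819). Bnip3 shared the most sequence of the 10. Of its last 500 bases, 78.1% of words of 35 bases are found, on either strand, in transcripts of other genes. An antisense gene, Gm45507 on the plus strand, overlaps 342 of these bases, and the noncoding AC160336.1 on chromosome 14 shares 42.9% of the words. Ndrg1 shared 12.02% with the antisense gene Gm17035, and the other 8 genes shared none. No source used here gives the strand use in counting, so reads of an antisense partner cannot be told apart.

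**Figure D3:**
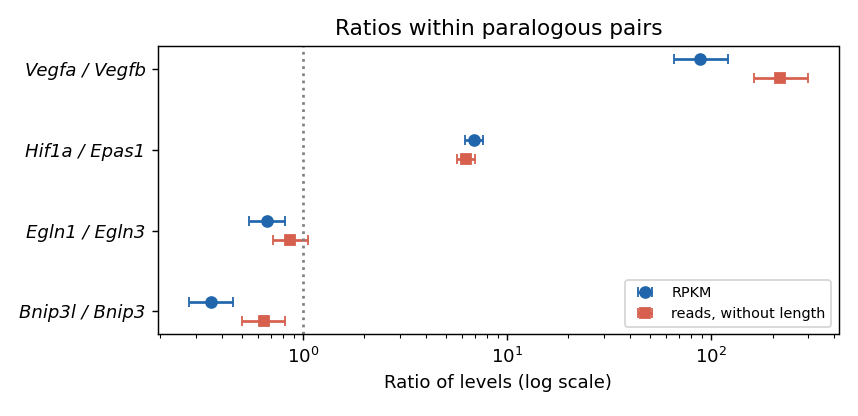
Ratio of levels within each paralogous pair on a log axis, per kilobase (circles) and by reads (squares), with exact 95% counting intervals; the dotted line marks a ratio of 1. The Vegfa to Vegfb ratio is 88.1 per kilobase and 217 by reads, and the interval of Egln1 to Egln3 by reads, 0.709 to 1.06, crosses 1.

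Autophagy and mTOR partners of these genes were mostly detected. Of 27 listed genes 21 (77.8%) were at an RPKM of at least 1, beside 31.0% of all genes, and the median was 4.67. By RPKM the autophagy cargo receptor Sqstm1 was highest at 465 (459 to 472). The pro-apoptotic BH3 gene Pmaip1 followed at 115, the 14-3-3 gene Ywhaz at 101 and the LC3-family gene Gabarap at 70.8. Without length Ywhaz, at 685 RPM, was above Pmaip1, at 609 RPM. Fundc1, another mitophagy receptor linked to hypoxia, had an RPKM of 1.22, Fkbp8 27.8 and Bcl2l13 1.07. Of the TSC complex through which DDIT4 acts, Tsc2 had 4.64 and Tsc1 0.288. All of the searched sequence of Tsc2 is shared with another gene. These last 5 genes were chosen with their values known.

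Of 40 other HIF target genes 29 (72.5%) were at an RPKM of at least 1, beside 31.0% of all genes. The list median was 4.69, near the 5.41 of the 10 genes and the 4.28 of the genes that reached an RPKM of 1. The chemokine receptor Cxcr4 had 438 (431 to 445), the glycolytic enzyme Aldoa 324, the lactate exporter Slc16a3 166 and the pyruvate kinase Pkm 157. Of the glucose transporters, Slc2a3 had 65.8 and Slc2a1 19.2. Car9, the carbonic anhydrase much used as a hypoxia marker, had 3.54 (2.99 to 4.17), adrenomedullin, Adm, 3.05 and the pyruvate dehydrogenase kinase Pdk1 0.391. Targets were thus spread over the whole range, with Ankrd37 at 0.127 from 3 reads, and Eno1 and Epo were listed at 0. For Eno1, 82.4% of the searched sequence is shared, so its 0 says only how it is listed. Genes after Pkm, other than those at 0, were named after their values were seen. Most of these genes answer to other signals too, so their levels do not measure HIF activity.

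**Figure D4:**
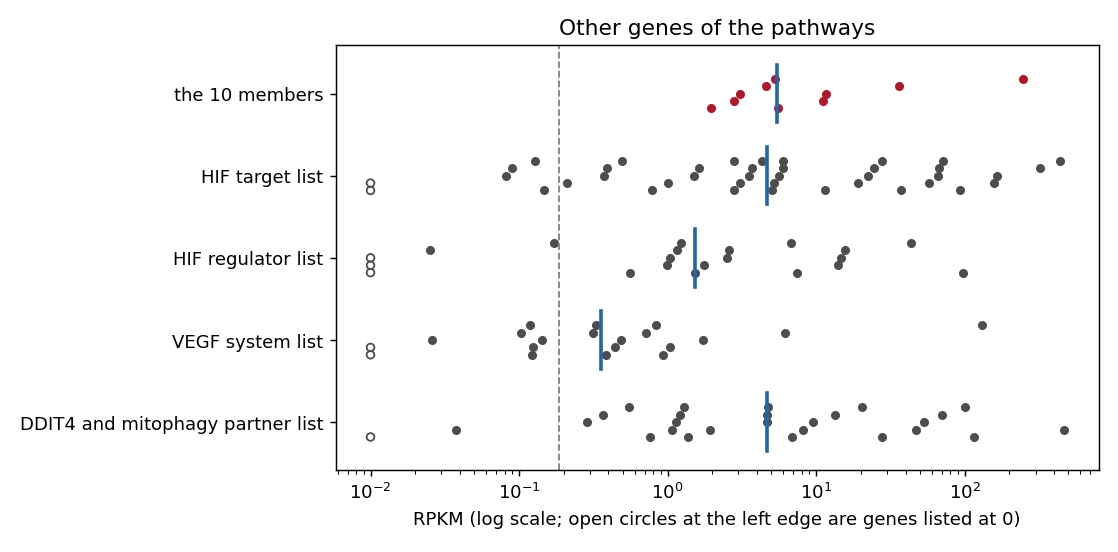
RPKM on a log axis of the 10 genes (red) and of each list of other pathway genes (grey); blue bars are medians, the dashed line is the median of all genes, 0.186, and open circles at the left edge are genes listed at 0. The medians are 5.41 for the 10 genes and 0.355 for the VEGF system list.

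Per kilobase, the counting intervals of several neighbours in the order of the 10 genes overlapped, which does not test whether the neighbours differ. Vegfa and Hif1a stood clear of each other and of the rest. The intervals overlapped for Ndrg1 and Ddit4, for Bnip3 and Epas1, for Epas1 and Egln3, for Egln1 and Vegfb, and for Vegfb and Bnip3l. They did not overlap for Ddit4 and Bnip3 or for Egln3 and Egln1. Without length the order was Vegfa, Hif1a, Ndrg1, Epas1, Ddit4, Egln3, Egln1, Bnip3, Bnip3l and Vegfb, and the intervals of Egln3, Egln1 and Bnip3 overlapped one another.

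Transcripts of other cell types were present beside these values. All 10 epithelial markers reached an RPKM of 1, which 31.0% of all genes did, with a summed RPKM of 282. Epcam had 89.3, Krt19 66.7 and Muc2 30.8. Among fibroblast and pericyte markers 5 of 9 did so, with a sum of 138, led by Col3a1 at 66.7, Col1a2 at 35.2 and Dcn at 23.8. Among smooth muscle markers 4 of 5 did so, led by Acta2 at 34.8, Tagln at 6.85 and Myh11 at 6.69. Macrophage and monocyte markers reached it in 6 of 10, with a sum of 101, led by Csf1r at 41.0, C1qb at 37.9 and C1qc at 10.7, and Mertk was listed at 0. Neutrophil markers did so in 2 of 8 (25%), below the share of all genes, namely S100a9 (23.9) and S100a8 (10.2). Ltf had 0.908, and both Elane and Mpo were listed at 0. The sums above are of RPKM and are no ranking of these cell types. Without length Col3a1, at 893 RPM, was above Epcam, at 438 RPM. The median RPM was 9.75 for fibroblast and pericyte markers and 55.6 for epithelial markers.

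Bnip3l is strongly expressed in the erythroid lineage, whose markers were uneven. The globin genes Hbb-bs, Hba-a1 and Hba-a2 had 559.9, 379 and 377, but shared sequence makes the value of each gene uncertain. Hba-a1 and Hba-a2 were each listed with 4573 reads, and whether these are the same reads is not known here. The 4 non-globin markers summed to 2.88, nearly all of it Alas2 at 2.82 (59.7% shared sequence, chosen with its value known). Ermap was listed at 0. Epithelial, stromal and other leukocyte cells can all express the genes described here, and their part in these levels was not tested.

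**Figure D5:**
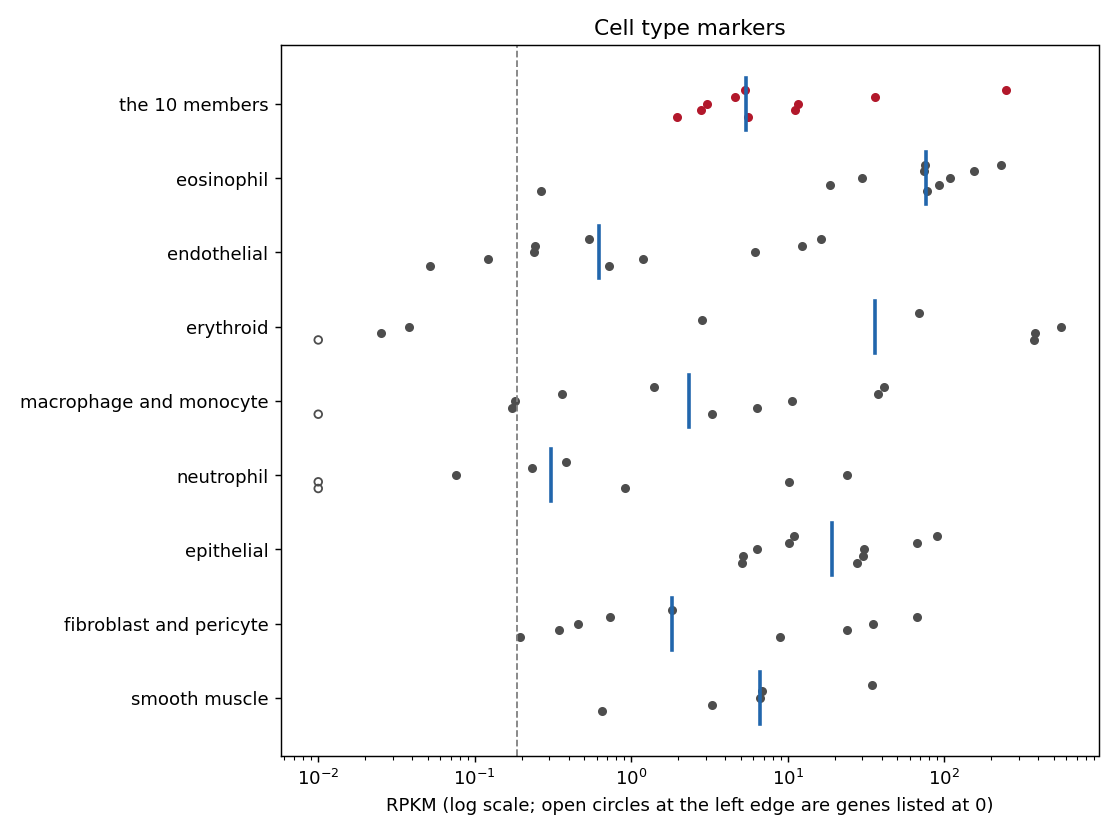
RPKM on a log axis of the 10 genes (red) and of marker genes of each cell type (grey); blue bars are medians, the dashed line is the median of all genes, 0.186, and open circles are genes listed at 0. Eosinophil markers have a median of 76.8 and epithelial markers one of 19.2.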

How the data were processed

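Colonic eosinophils of naive mice were profiled in 2 samples of 1 group. Reads were processed with STAR 2.4.2a and DESeq on build mm10, per the submitters' processing notes; no source used here names the counter, the annotation or how reads with several alignments were treated. The deposited signal column is a mean read number per RefSeq transcript: all values times 6 were whole within 0.0001. The deposited RPKM column was computed by the authors. Of 31295 rows, the row with the most reads was kept per gene. There were 0 columns of other samples. Library depths came from transcripts with a single read and GENCODE M21 lengths.

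Levels carry exact Poisson intervals and ratios Clopper-Pearson intervals at 95%. No test between samples was possible. Shared sequence was searched as 35-base words in the last 500 bases of 186 genes. Genes and lists were chosen with earlier results of these data known. All 10 genes are named, then the 4 highest of each list by RPKM and up to 3 listed at 0 (3 highest for markers). Ly6g was not matched. With 1 value per gene, no genes of like pattern could be sought. Alternatives were other minimums, RPM, rescaled RPKM, other rows per gene and other motif settings; leaving out genes with shared sequence and the longer Vegfa length were chosen after seeing the data. Methods were tested on simulated data. Scripts ran in Python 3.11.15 (scipy 1.17.1, numpy 2.4.6, matplotlib 3.10.9, pandas 2.3.3).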

Additional observations from a re-analysis of the deposited data

Results flagged for a closer look

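Reads were also present on a Vegfa row that the rule for choosing rows leaves out: NM_001025257, which begins at the outer start site, had 678 reads over the 6 libraries, above the limit of 3 reads that a count of 0 allows.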

How the results depend on the processing

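All 10 genes stayed at or above the minimum with 1 RPM, which 50.9% of all genes reached. All 10 also did with an RPKM of 0.5 and with RPKM rescaled, and 6 did at an RPKM of 5. For these last 3 minimums the share of all genes was not counted, so the counts cannot be set against it. By reads without length, the ratio of Vegfa to Vegfb was 217, of Egln1 to Egln3 0.866 and of Bnip3l to Bnip3 0.642; with the longer Vegfa length, the first was 51.8. At an RPKM of 5, 7 HIF regulators, 2 VEGF system genes and 12 DDIT4 and mitophagy partners remained above the minimum, again with no share of all genes counted. The VEGF system count was 4 of 20 at an RPKM of 1, where 31.0% of all genes were. It was 15 of 20 at 1 RPM, where 50.9% of all genes were. At an RPKM of 0.5 it was 7, with no share of all genes counted. Of 46 such alternatives, 36 changed a count by less than 1.5 times or kept a ratio or median within its counting interval. Some of these could not differ. Each gene of the HIF alpha, EGLN and BNIP3 ratios has 1 row, so other rows gave the same ratio. The median over genes at an RPKM of 1 or more was again over all 10. By reads, only the ratio of Hif1a to Epas1 stayed within its interval. No ratio crossed 1. Leaving out a replicate was not possible with 1 value per gene. No paired analysis was possible because there is 1 group. Depth limits Vegfb most, at 46 reads.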

Other observations

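RPKM averaged over libraries can differ from RPKM of the pooled reads where a gene was not equally abundant in shallow and deep libraries. For the 9 genes with a GENCODE transcript length, adjusted to the ends given in the table, the first was 0.987 to 1.27 times the second, with a median of 1.01. Over 809 transcripts of 100 or more reads whose ends matched exactly, the central 90% ran from 0.810 to 1.14. Epas1, at 1.10, and Hif1a, at 1.07, lay inside that range. Vegfb, at 1.27 from 46 reads, lay outside it, but the range gives no spread for genes with fewer than 100 reads. Which library belongs to which sample is not known here, and a cause was not tested.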
